A study of Danio rerio with 10 samples.

Results

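The gene *islet2a* (*isl2a* on the array) was disrupted by TALEN gene editing, and embryos homozygous for the resulting frameshift deletion were set against wildtype embryos. Of the 10 arrays in the series, 7 entered the comparison, chosen by their titles and descriptions. They were 3 arrays of *islet2a* mutants, 2 arrays of sibling wildtype embryos (homozygous wildtype relatives of the mutants, titled mock controls) and 2 arrays of uninjected wildtype embryos. All came from whole zebrafish embryos at 2 dpf, grown for 48 hpf, and each array held RNA pooled from many embryos. The remaining 3 arrays, of embryos injected with a translation-blocking morpholino, only helped to estimate the spread between arrays. Mutants carried 1 allele of 1 line, and as in the methods of the study both wildtypes were joined as controls (4 arrays). The sources do not say whether pools came from separate clutches, so the p-values measure the spread between these pools only.

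Islet2a is a LIM homeodomain transcription factor. Islet proteins bind DNA through the homeodomain and bind partners such as Ldb proteins through the LIM domains. In the zebrafish spinal cord *islet2a* is known from CaP primary motor neurons and Rohon-Beard sensory neurons. These cells are a small part of a whole embryo, and in RNA from whole embryos fewer cells of a type and less RNA per cell cannot be told apart.

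The deposited log2 signals of the 10 arrays had medians of 4.92 to 4.96 and ran from 1.39 to 13.3, over 75212 probe sets. Of 52 listed markers of 13 tissues, 46 were measured, 40 of them above the median of every array, and none passed an adjusted p of 0.05. At an unadjusted p below 0.05 in limma there were 14 of the 46, against 17.6% of all genes. Uninjected replicate 2 is marked as a redo in a supplementary table of the study. Probe sets counted as called when limma gave an adjusted p below 0.05 (Benjamini-Hochberg over all probe sets) with a change of at least 2-fold. By this rule 123 probe sets were called, 61 higher and 62 lower in mutants, or 0.164% of those tested. Without the fold limit 254 passed (0.338%), and at an unadjusted p below 0.05 there were 10090. Only 23 of the 123 carried a single gene symbol, and the other 100 had 80 distinct signal patterns, since some probe sets on the array are identical copies.

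The gene that was edited was higher in mutants. The log2 signal of *isl2a* was 8.95, 9.12 and 9.13 in the mutants, against 8.57 and 8.61 in sibling wildtype and 8.59 and 8.51 in uninjected wildtype. Every mutant array lay above every control array. The log2 fold change was 0.50 (standard error 0.08, adjusted p = 0.0474 from limma), which is below the 2-fold limit. The exact two-sided permutation test gave p = 0.0571, the smallest possible for 3 arrays against 4. Against siblings alone the log2 fold change was 0.47 (adjusted p = 0.176) and against uninjected embryos alone 0.52 (adjusted p = 0.0801). Where the probes lie relative to the deletion is not given in the sources used here, so the RNA level is no check of the genotype.

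The paralogues of *isl2a* did not pass the test. *isl1a* had log2 signals of 9.26, 9.64 and 9.67 in mutants, against 9.35 and 9.28 in siblings and 9.39 and 9.04 in uninjected embryos (log2 fold change 0.26, adjusted p = 0.452). *isl2b* had 6.85, 7.47 and 7.37 in mutants, against 7.01 and 7.02 in siblings and 7.11 and 6.69 in uninjected embryos (log2 fold change 0.27, adjusted p = 0.513). For both, mutant replicate 1 lay among the control arrays and the other mutants lay above them. *isl1b* had a log2 fold change of 0.06 (adjusted p = 0.896).

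Among 24 islet and other LIM homeodomain factors and their binding partners, *isl2a* was the one that passed an adjusted p of 0.05. At an unadjusted p below 0.05 there were 6 higher and 1 lower, with a median log2 fold change of 0.13. Over all 19260 genes counted once by their brightest probe set, 8.76% were higher and 8.85% lower at that p, and the median was -0.0068. Without mutant replicate 2 or 3 there were 3 list members higher, where 5.05% and 6.01% of all genes were. The largest value was that of *lhx4*, a partner of Islet factors in motor neurons, at 0.57 (adjusted p = 0.169). The adaptors *ldb2b* and *ldb2a*, which hold LIM factor complexes together, had 0.33 and 0.26. The guidance receptor genes *nrp1a* and *plxna3*, of interest for CaP axons, had log2 fold changes of 0.20 (adjusted p = 0.410) and 0.17 (adjusted p = 0.564).

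Of the 23 called genes, 10 were higher and 13 lower in mutants, and the 3 mutant arrays lay apart from the 4 control arrays for each of them, as they did for 12.1% of all probe sets. The largest rise was that of *LOC100329398*, which has no named product, with 6.86, 6.85 and 7.32 in mutants, against 3.69 and 4.08 in siblings and 4.62 and 4.19 in uninjected embryos. Its log2 fold change was 2.86 (standard error 0.23, adjusted p = 0.000785), and in *zgc:194221* it was 1.28 (standard error 0.08, adjusted p = 9.9e-05). *zgc:194221* had 6.41, 6.42 and 6.56 in mutants, against 5.15 and 5.19 in siblings and 5.26 and 5.14 in uninjected embryos. The arrays of each group lay close together, far from those of the other. In 9 of the 23 called genes the lower group mean lay below the median of every array. They included *LOC100329398*, *ngfrb* and *cxcr4a*.

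**Figure D1:**
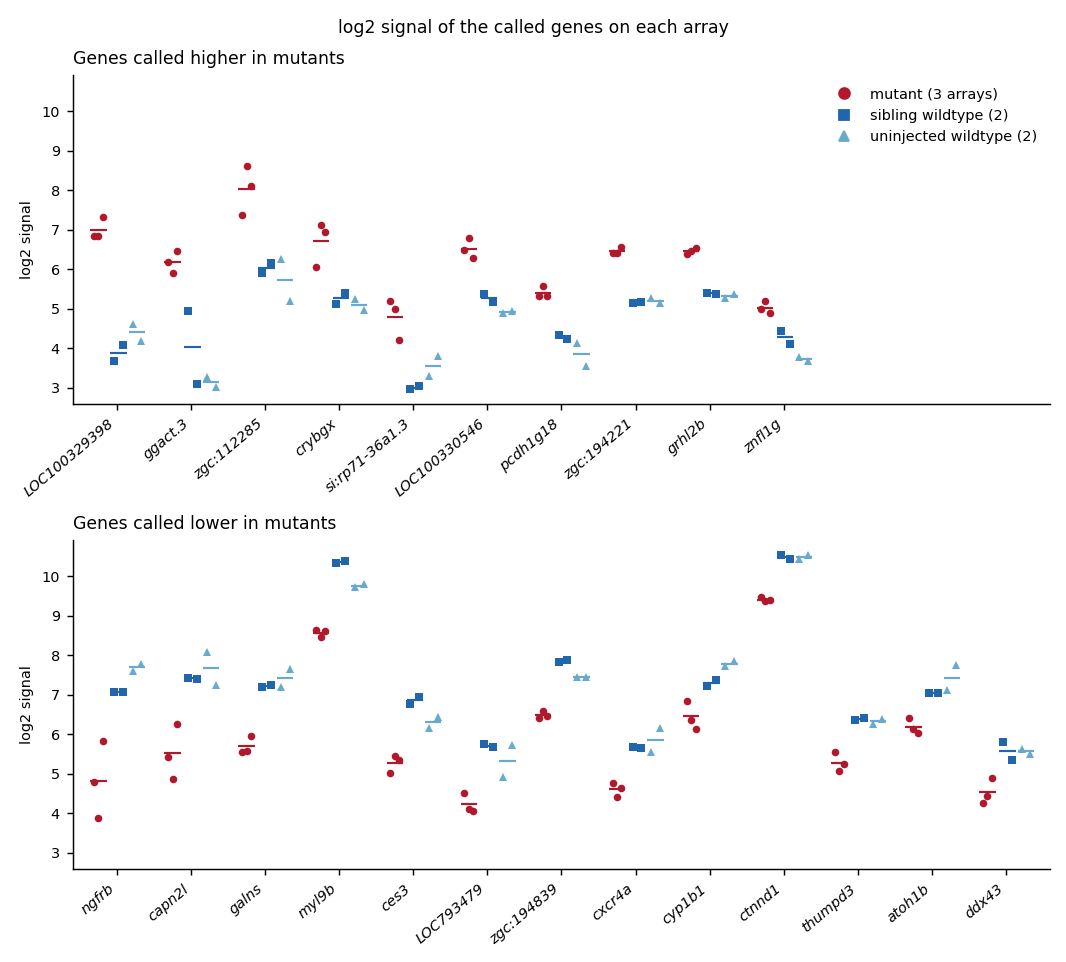
Log2 signal of the 23 called genes with a single symbol on each array, with genes called higher in mutants above and genes called lower below. Points are arrays (3 mutant, 2 sibling wildtype, 2 uninjected wildtype) and short lines are group means. For *ggact.3* sibling replicate 1 (4.95) stands above the other controls, while all mutant arrays lie above it. Signals of different genes cannot be compared with each other.

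The genes called lower included several with a known place in cell signalling and adhesion. *ngfrb*, one of the zebrafish genes for a neurotrophin receptor, had 4.79, 3.87 and 5.83 in mutants, against 7.07 and 7.08 in siblings and 7.61 and 7.78 in uninjected embryos (log2 fold change -2.55, standard error 0.37, adjusted p = 0.0265). The mutant arrays spread over nearly 2 log2 units, yet the lowest control lay above the highest mutant. *cxcr4a*, a receptor of the chemokine Cxcl12, had 4.77, 4.41 and 4.65 in mutants, against 5.67 and 5.65 in siblings and 5.56 and 6.15 in uninjected embryos (log2 fold change -1.15, adjusted p = 0.0177). *ackr3b*, which encodes the scavenger receptor of the same chemokine, fell by less than 2-fold, with 8.26, 8.02 and 7.91 in mutants, against 8.93 and 9.08 in siblings and 8.89 and 8.99 in uninjected embryos. Its log2 fold change was -0.91 (standard error 0.10, adjusted p = 0.00741), and it also passed against siblings alone (adjusted p = 0.0309) and against uninjected embryos alone (adjusted p = 0.0302).

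The paralogues of these receptors did not pass, with log2 fold changes of -0.18 for *cxcr4b* (adjusted p = 0.627) and 0.14 for *ackr3a* (adjusted p = 0.777), and in both the mutants overlapped with the controls. The ligand genes *cxcl12b* and *cxcl12a* had -0.37 (adjusted p = 0.156) and 0.16 (adjusted p = 0.663). Among 31 chemokine receptors and ligands *cxcr4a* and *ackr3b* were the only members past an adjusted p of 0.05, which 0.338% of all probe sets passed. The list as a whole had a median log2 fold change of -0.0082, with 1 member higher and 3 lower at an unadjusted p below 0.05. Over all genes 8.76% were higher and 8.85% lower at that p.

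*atoh1b*, a proneural transcription factor of the hindbrain and of hair cells, had 6.41, 6.13 and 6.03 in mutants, against 7.05 and 7.04 in siblings and 7.11 and 7.75 in uninjected embryos (log2 fold change -1.05, adjusted p = 0.0483). The related *atoh1a* had -0.57 (adjusted p = 0.203). *myl9b*, a regulatory light chain of myosin, had 8.64, 8.47 and 8.63 in mutants, against 10.33 and 10.40 in siblings and 9.72 and 9.82 in uninjected embryos (log2 fold change -1.49, adjusted p = 0.0171). For *myl9b* the siblings were the higher of the wildtypes, so that the difference was -1.79 against siblings (adjusted p = 0.00466) and -1.19 against uninjected embryos (adjusted p = 0.0234). It was the only one of 29 smooth muscle and actomyosin genes past an adjusted p of 0.05. The list had 0 higher and 5 lower at an unadjusted p below 0.05, where 8.76% of all genes were higher and 8.85% lower.

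*galns*, a lysosomal sulfatase that degrades keratan sulfate, had 5.56, 5.58 and 5.95 in mutants, against 7.20 and 7.25 in siblings and 7.21 and 7.65 in uninjected embryos (log2 fold change -1.63, standard error 0.18, adjusted p = 0.00667). *ces3*, a carboxylesterase, had -1.30 (adjusted p = 0.0410), and *capn2l*, a calcium-activated protease of the calpain family, had -2.02 (adjusted p = 0.0471). Of 65 carboxylesterases, calpains and lysosomal enzymes, each counted by its brightest probe set, 2 fell past an adjusted p of 0.05 (*galns* and *ces3*). That adjusted p was passed by 0.338% of all probe sets. At an unadjusted p below 0.05 there were 20 lower and 2 higher, against 8.85% and 8.76% of all genes, with a median of -0.13. The members lower at that p included the sulfatases *arsa* (-0.32) and *sgsh* (-0.39), the cathepsins *ctsc* (-0.61) and *ctslb* (-0.65) and the calpains *capn2a* (-0.37) and *capn5a* (-0.35), while *neu3.2*, a sialidase, had 1.46. In *neu3.2* the siblings lay 1.43 above the uninjected embryos, and the change was 0.75 against siblings alone and 2.17 against uninjected embryos alone. Without mutant replicate 1 there were 10 lower, and without mutant replicate 2 or uninjected replicate 2 there were 13. Of all genes 8.29%, 5.36% and 6.40% were lower in these settings, in that order. Of 4 markers of the hatching gland, which is rich in proteases, 3 were lower at an unadjusted p below 0.05. They were its hatching enzymes *he1.1* (-0.60) and *he1.2* (-0.89) and *ctslb*, which is counted above as well. In *he1.2* and *ctslb* the mutants overlapped with the controls, and the other marker, *cd63*, had 0.08. The mean signal of the 4 hatching gland markers ran from 8.35 to 8.68 in mutants, against 8.67 to 9.32 in controls. Its part in the result was not tested.

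Of 75 cytochrome P450 genes, monooxygenases of foreign compounds and lipids, 2 passed an adjusted p of 0.05, as did 0.338% of all probe sets. At an unadjusted p below 0.05 there were 3 higher and 9 lower, against 8.76% and 8.85% of all genes, with a median of -0.02. The higher members were 1 without uninjected replicate 1 and 5 without sibling replicate 1 or 2. *cyp1b1* had 6.85, 6.37 and 6.13 in mutants, against 7.23 and 7.39 in siblings and 7.72 and 7.85 in uninjected embryos (log2 fold change -1.09, adjusted p = 0.0489). *cyp2aa9* had -0.88 (adjusted p = 0.0345) and its relative *cyp2aa8* -1.13 (adjusted p = 0.119). The remaining calls lower in mutants were *LOC793479* (-1.29), *zgc:194839* (-1.17), *thumpd3*, which takes part in tRNA methylation (-1.07), and *ddx43*, an RNA helicase (-1.04).

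Among the rises, *ggact.3* belongs to the gamma-glutamylamine cyclotransferases. It had 6.19, 5.90 and 6.46 in mutants, against 4.95 and 3.11 in siblings and 3.27 and 3.02 in uninjected embryos (log2 fold change 2.59, standard error 0.40, adjusted p = 0.0366). Its relatives *ggact.2* and *ggact.1* had log2 fold changes of 1.63 (adjusted p = 0.0851) and 1.01 (adjusted p = 0.0688). For these genes as well sibling replicate 1 was the highest control, at 4.15 for *ggact.2* and 5.72 for *ggact.1*, and every mutant array lay above it. Near-identical copies can share probe signal, so the 3 genes cannot be counted as separate evidence.

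The other rises belonged to unrelated genes. *crybgx*, a lens crystallin, had 6.07, 7.13 and 6.96 in mutants, against 5.14 and 5.41 in siblings and 5.24 and 4.97 in uninjected embryos (log2 fold change 1.53, adjusted p = 0.0249). *pcdh1g18*, a clustered protocadherin of neurons, had 5.33, 5.58 and 5.31 in mutants, against 4.34 and 4.24 in siblings and 4.13 and 3.56 in uninjected embryos (log2 fold change 1.34, adjusted p = 0.0282). *znfl1g*, of a large zinc finger family, had 1.03 (adjusted p = 0.0446). Also called were *zgc:112285* (2.15), *si:rp71-36a1.3* (1.52) and *LOC100330546* (1.42). *zgc:112285* showed the same order of mutants as *crybgx*, with replicate 1 lowest (7.38) and replicate 2 highest (8.63).

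A further 43 genes passed the adjusted p with less than a 2-fold change, 21 higher and 22 lower. *mcama*, an adhesion molecule of endothelial and other cells, lay just outside the fold limit at -0.99, and *ddx43* just inside at -1.04. Of the lower genes, *btg2*, an antiproliferative gene under p53, had 9.19, 8.78 and 9.07 in mutants, against 9.71 and 9.77 in siblings and 9.55 and 9.72 in uninjected embryos (log2 fold change -0.67, adjusted p = 0.0476). *mcama* had 6.47, 6.42 and 6.44 in mutants, against 7.52 and 7.28 in siblings and 7.61 and 7.31 in uninjected embryos (adjusted p = 0.00709), with mutants closer together than controls. Besides *ackr3b* and *cyp2aa9*, the largest falls in this range included *si:dkeyp-117h8.4* (-0.94), *ints12*, an Integrator subunit (-0.85), *mto1*, which modifies mitochondrial tRNA (-0.83), *cpped1* (-0.79), *tango6* (-0.74) and *cby1* (-0.72). For *tango6* uninjected replicate 1 (6.098) lay below the other controls, which ran from 6.51 to 6.55, and above the mutants at 5.51 to 5.82.

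Of the higher genes in this range, *rab3ab*, a small GTPase of synaptic vesicles, had 8.93, 9.33 and 9.23 in mutants, against 8.46 and 8.43 in siblings and 8.44 and 8.37 in uninjected embryos (log2 fold change 0.74, adjusted p = 0.0345). *tubb4bl*, a tubulin, had 10.54, 10.80 and 10.73 in mutants, against 9.68 and 9.77 in siblings and 10.13 and 9.90 in uninjected embryos (log2 fold change 0.82, adjusted p = 0.0323). Both were separated from all controls, and in *tubb4bl* the siblings were the lower wildtype. *cd81b*, a tetraspanin, had 0.87, *cbsa*, an enzyme of homocysteine metabolism, 0.71, and *adgrl1.1*, a latrophilin receptor, 0.71. The 5 others among the 10 largest rises were *si:ch73-14h1.2* (0.98), *si:ch211-149a19.3* (0.94), *LOC100004944* (0.83), *si:ch211-288g17.4* (0.79) and *si:dkey-121n8.8* (0.71).

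For 13 of these 66 genes the array held more than 1 probe set, and only 1 probe set of each gene passed. The 15 other probe sets of the same genes did not pass, and in 8 genes at least 1 of them had the opposite sign. *ctnnd1*, a catenin that binds the tail of cadherins, is an example. One probe set had 9.47, 9.36 and 9.40 in mutants, against 10.54 and 10.43 in siblings and 10.44 and 10.55 in uninjected embryos (log2 fold change -1.08, standard error 0.07, adjusted p = 0.000250). The other had 9.87, 9.88 and 9.995 in mutants, against 9.97 and 9.86 in siblings and 9.36 and 9.79 in uninjected embryos (log2 fold change 0.17, adjusted p = 0.640). The call thus belongs to 1 of its probe sets.

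*grhl2b*, a grainyhead transcription factor of epithelia, showed the same in the other direction. One probe set had 6.38, 6.47 and 6.54 in mutants, against 5.41 and 5.38 in siblings and 5.29 and 5.39 in uninjected embryos (log2 fold change 1.098, standard error 0.09, adjusted p = 0.000785). The other had 6.14, 6.44 and 6.48 in mutants, against 6.57 and 6.49 in siblings and 6.28 and 6.56 in uninjected embryos (log2 fold change -0.12, adjusted p = 0.717). The second probe set of *ngfrb* had a log2 fold change of 0.63 (adjusted p = 0.307). Those of *capn2l* and *mcama* had 0.45 (adjusted p = 0.713) and 0.58 (adjusted p = 0.150). Each had the sign opposite to the probe set that passed. In *ngfrb* and *mcama* every mutant array lay above every control for the second probe set. The other probe sets of *ints12* had 0.15, also with every mutant above every control, and -0.03. For *tubb4bl* the second probe set had the same sign, at 1.13 (adjusted p = 0.338), but its siblings lay with the mutants. What the probe sets of a gene read, such as exons or transcript forms, is not given in the sources used here.

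**Figure D2:**
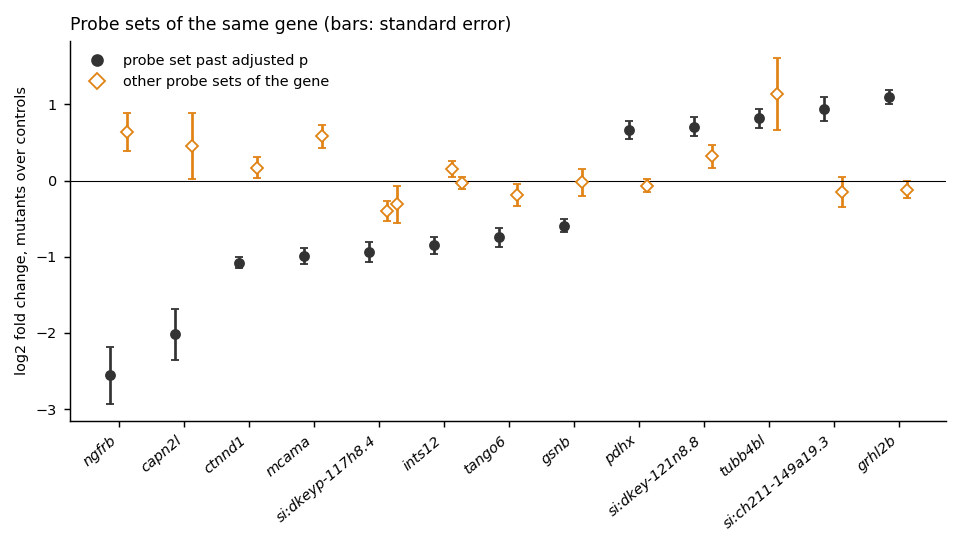
Log2 fold change of mutants over controls for the 13 genes with more than 1 probe set and a probe set past an adjusted p of 0.05. Filled circles are the probe sets that passed and open diamonds are the others of the same gene, with bars of 1 standard error. In *ngfrb*, *capn2l*, *ctnnd1* and *mcama* the diamonds lie above 0 and the circles below.

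The largest changes belonged to probe sets to which no single gene could be given. Probe set 13302028 had 8.38, 8.28 and 8.38 in mutants, against 3.87 and 3.99 in siblings and 4.07 and 3.45 in uninjected embryos (log2 fold change 4.502, adjusted p = 1.89e-06). Probe set 13297540 had 3.28, 3.65 and 3.58 in mutants, against 7.57 and 7.36 in siblings and 7.98 and 7.68 in uninjected embryos (log2 fold change -4.15). Each of these was beyond any change of a named gene, and the wildtypes lay far from the mutants in both. In both probe sets the lower group mean lay below the median of every array.

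The 2 kinds of wildtype did not give equal counts. Against siblings alone 111 probe sets were called (0.148%), against uninjected embryos alone 272 (0.362%), and between siblings and uninjected embryos 24 (0.0319%). Of the 23 named genes, 10 passed the adjusted p against siblings, 17 against uninjected embryos and 8 against both. These 8 were *galns*, *myl9b*, *zgc:194839*, *ctnnd1*, *thumpd3*, *grhl2b*, *zgc:194221* and *LOC100329398*. None of the 23 differed between siblings and uninjected embryos at an adjusted p below 0.05 in limma. At an unadjusted p below 0.05, 5 of the 23 differed between the wildtypes, as did 5308 of all 75212 probe sets.

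The result rested on mutant replicate 2 more than on any other array. Without it 55 probe sets were called, and of the 66 genes 4 passed, against 46 without mutant replicate 1 and 14 without mutant replicate 3. The 4 that passed with any single array left out were *ctnnd1*, *grhl2b*, *zgc:194221* and *LOC100329398*. Leaving out uninjected replicate 1 or 2 gave 78 and 75 calls, mutant replicate 3 gave 77 and mutant replicate 1 gave 213. The share of all genes at an unadjusted p below 0.05 in limma changed as well. It was 5.05% higher and 5.36% lower without mutant replicate 2, and 10.35% and 8.29% without mutant replicate 1. Without mutant replicate 3 it was 6.01% and 6.79%, and without uninjected replicate 2 it was 6.98% and 6.40%. Against siblings alone it was 6.17% and 6.02%. Counts of list members in these settings stand beside these shares. *isl2a* still passed without mutant replicate 1 (adjusted p = 0.0392), but with any other single array left out its adjusted p was 0.0709 to 0.176.

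Genes of cell division were lower together in mutants, although no member passed an adjusted p of 0.05. At an unadjusted p below 0.05, 8.85% of all genes were lower and 8.76% higher. Of 52 genes of mitosis 43 were lower and 0 higher at that p, with a median log2 fold change of -0.43. They included *birc5a*, part of the chromosomal passenger complex (-0.69, adjusted p = 0.0670), the condensin subunits *ncaph* (-0.64) and *ncapg* (-0.54), the kinase *plk1* (-0.53) and the cyclin *ccnb1* (-0.50). *birc5a* had 7.19, 6.77 and 6.88 in mutants, against 7.68 and 7.50 in siblings and 7.49 and 7.87 in uninjected embryos. Mutant replicate 1 was the mutant array nearest to the controls, here and across the list. All 3 mutant arrays lay below all controls in 35 of the 52 genes, while the groups lay apart in either direction for 12.1% of all probe sets. Genes of a list can move together on an array, so they are not separate evidence.

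Of 46 genes of DNA replication 30 were lower and 0 higher at an unadjusted p below 0.05, against 8.85% and 8.76% of all genes. The list median was -0.35, and all 46 had a negative log2 fold change. *pola1*, the catalytic subunit of DNA polymerase alpha, had -0.55 (adjusted p = 0.100), and *mcm7* of the replicative helicase had -0.57. Mutant replicate 1 was below all controls in 11 of the 46 genes, replicate 2 in 43 and replicate 3 in 40. Against siblings alone 6 were lower at an unadjusted p below 0.05 (median -0.27), and without mutant replicate 2 there were 10 (median -0.25). Without mutant replicate 3 there were 14 and without uninjected replicate 2 there were 18. Of all genes 6.02% were lower against siblings, 5.36% without mutant replicate 2, 6.79% without mutant replicate 3 and 6.40% without uninjected replicate 2. Of 29 G1 cyclins, E2F factors and inhibitors 10 were lower and 1 higher, among them *e2f2* (-0.62) and *ccnd1* (-0.37), and 5 or 6 were lower without mutant replicate 2, mutant replicate 3 or uninjected replicate 2. The mean of the mitosis genes, each centred over the 7 arrays, was -0.03, -0.38 and -0.28 in mutants, against 0.21 and 0.04 in siblings and 0.14 and 0.31 in uninjected embryos.

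Notch signalling between neighbouring cells holds neural progenitors undifferentiated through Her transcription factors. Of 45 Notch pathway genes 22 were lower and 2 higher at an unadjusted p below 0.05, against 8.85% and 8.76% of all genes. The list median was -0.24, and no member passed an adjusted p of 0.05. The *her* genes had the largest values. *her4.5* had 6.42, 5.33 and 4.98 in mutants, against 7.57 and 7.10 in siblings and 7.52 and 6.85 in uninjected embryos (log2 fold change -1.68, adjusted p = 0.0562). *her4.1* had 7.33, 6.84 and 6.26 in mutants, against 8.16 and 7.81 in siblings and 8.09 and 7.49 in uninjected embryos (log2 fold change -1.07, adjusted p = 0.0977). In both genes every mutant lay below every control, and mutant replicate 1 was the highest mutant.

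The other members lower at that p included *her13* (-0.75), *her2* (-0.80), *her3* (-0.53), *her9* (-0.43), the receptors *notch1a* (-0.46) and *notch3* (-0.42), the ligands *dla* (-0.43) and *dlb* (-0.53) and the nuclear partner *rbpja* (-0.26). The 2 higher members were *mfng*, which glycosylates Notch (0.31), and *jagn1a* (0.45), an endoplasmic reticulum protein that shares only its name with the Jagged ligands. Against siblings alone 12 members were lower and 2 higher, and without mutant replicate 2 there were 14 lower. Of all genes 6.02% were lower and 6.17% higher against siblings, and 5.36% were lower without mutant replicate 2. The *her4* genes are near-identical copies that can share probe signal.

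**Figure D3:**
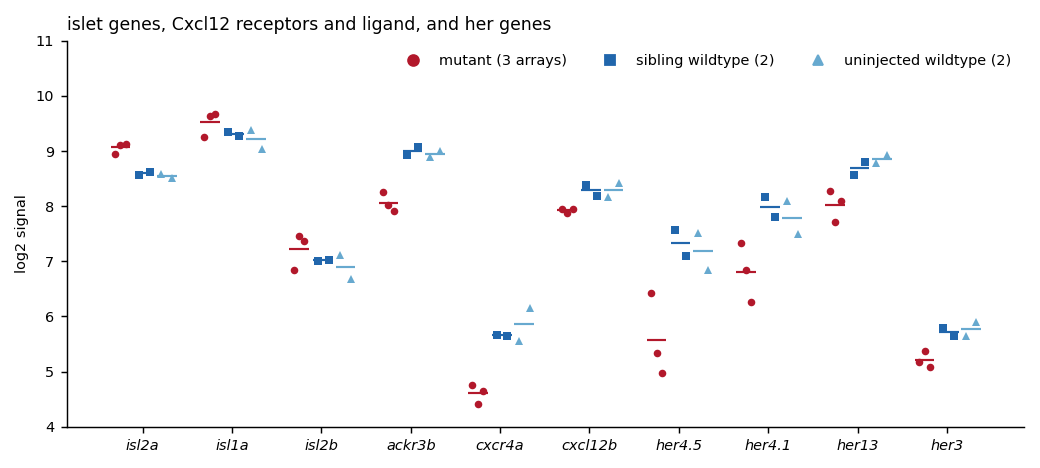
Log2 signal on each array of the islet genes, the Cxcl12 receptor genes *ackr3b* and *cxcr4a* with the ligand *cxcl12b*, and 4 *her* genes, with 3 mutant, 2 sibling wildtype and 2 uninjected wildtype arrays and group means as short lines. Mutants lie apart from all controls for *isl2a*, *ackr3b*, *cxcr4a*, *cxcl12b* and the *her* genes, and overlap with them for *isl1a* and *isl2b*. Of these genes *isl2a*, *ackr3b* and *cxcr4a* passed an adjusted p of 0.05.

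Genes of voltage-gated ion channels leaned the other way. Of 75 voltage-gated ion channel genes 22 were higher and 1 lower at an unadjusted p below 0.05, against 8.76% and 8.85% of all genes. The list median was 0.14, and no member passed an adjusted p of 0.05. The higher members included the calcium channel subunits *cacna2d2b* (0.52, adjusted p = 0.106), *cacnb3a* (0.51) and *cacna1ab* (0.40), the sodium channels *scn5lab* (0.40) and *scn8aa* (0.37) and the potassium channel *kcna1b* (0.47), and the lower one was *kcnab1a* (-0.31). Of the neuron markers *elavl3* had 0.09, *elavl4* 0.40, *snap25a* 0.35 and *sncb* 0.51, with a mean signal of the 4 markers of 9.79 to 10.08 in mutants, against 9.53 to 9.67 in controls. Their part in the channel values was not tested. Without mutant replicate 2 there were 10 channel genes higher, with a median of 0.10, and without mutant replicate 3 or sibling replicate 2 there were 14. Of all genes 5.05% were higher without mutant replicate 2, 6.01% without mutant replicate 3 and 8.44% without sibling replicate 2.

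Protocadherins are adhesion molecules that lend neurons an identity. Of 47 protocadherins 15 were higher and 3 lower at an unadjusted p below 0.05, against 8.76% and 8.85% of all genes. The list median was 0.16, and *pcdh1g18* passed the adjusted p. *pcdh2ab7* had 6.14, 6.40 and 6.34 in mutants, against 5.65 and 5.76 in siblings and 5.04 and 5.03 in uninjected embryos (log2 fold change 0.93, adjusted p = 0.0878). The siblings lay between mutants and uninjected embryos in this gene. Over the list the median was 0.14 against siblings and 0.26 against uninjected embryos. Members of the clusters are near-identical and can share probe signal.

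Genes of the cells known for *islet2a* were counted in the same way, beside 8.76% of all genes higher and 8.85% lower. Of 26 motor neuron genes 6 were higher and 2 lower at an unadjusted p below 0.05, with a median of 0.0086. The higher ones included *chata*, which makes acetylcholine (0.36), *slc18a3b*, which loads it into vesicles (0.29), and *syt2a*, a calcium sensor of synaptic vesicles (0.58, adjusted p = 0.0788). The lower ones included *neurog1* (-0.45, adjusted p = 0.226), and *mnx1*, a motor neuron factor, had -0.16. Without mutant replicate 2 the higher members were 2, and without mutant replicate 3 or uninjected replicate 2 they were 3. Against siblings alone 1 motor neuron gene was higher and 0 lower, where 6.17% of all genes were higher and 6.02% lower. Of 26 Rohon-Beard and sensory neuron genes 4 were higher and 2 lower, with a median of 0.13 and *ngfrb* the only one past an adjusted p of 0.05. *ntrk2b*, a receptor for BDNF, had 0.50 and *pou4f3* 0.34. Without mutant replicate 1 there were 8 higher and without mutant replicate 2 there was 1. Against siblings alone 1 of these genes was higher and 3 were lower. Of 55 axon guidance genes 4 were higher, among them *robo2* (0.52), and 3 lower, among them *ephb2b* (-0.51) and *epha2a* (-0.61), with a median of 0.0084. Leaving out mutant replicate 1 gave 7 higher, and leaving out either mutant replicate 2 or uninjected replicate 2 gave 1. Leaving out uninjected replicate 1 gave 2 higher and 5 lower. Against siblings alone 1 axon guidance gene was higher and 4 were lower. Of all genes 10.35% were higher without mutant replicate 1, 5.05% without mutant replicate 2 and 6.01% without mutant replicate 3. The share without uninjected replicate 2 was 6.98%.

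**Figure D4:**
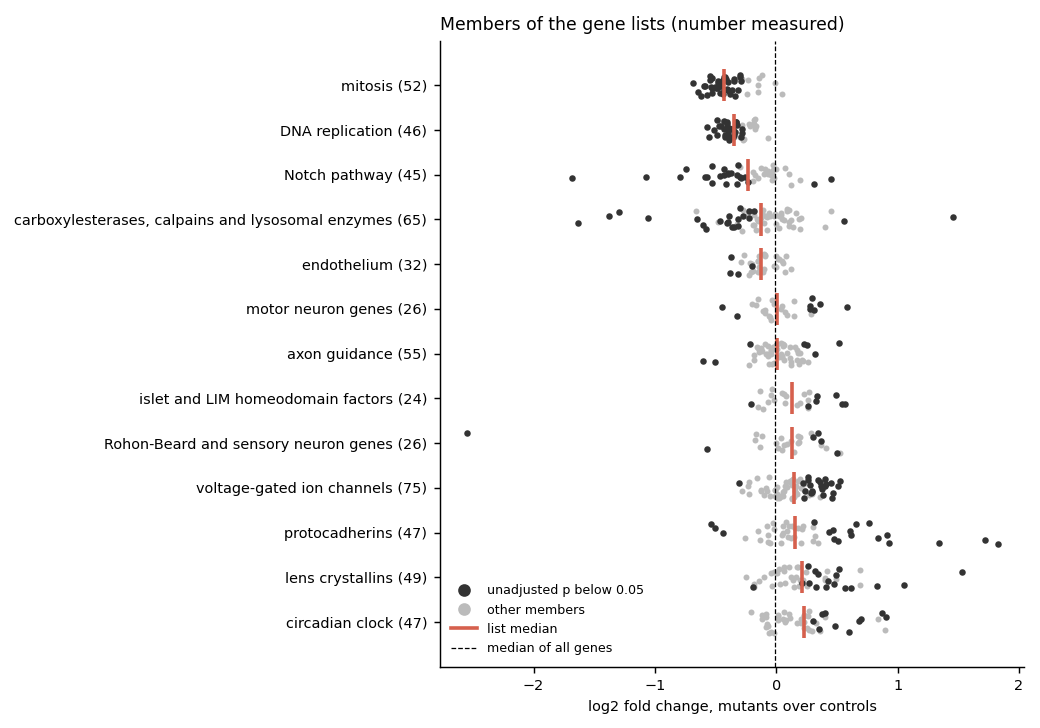
Log2 fold change of mutants over controls for the members of 13 gene lists, with the number measured after each name. Dark points had an unadjusted p below 0.05, grey points did not, red bars are list medians and the dashed line is the median of all genes (-0.0068). The medians run from -0.43 for mitosis to 0.22 for the circadian clock.

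Genes of the eye and the clock were also higher on balance, beside 8.76% of all genes higher and 8.85% lower at an unadjusted p below 0.05. Of 49 lens crystallins 16 were higher and 1 lower at an unadjusted p below 0.05 (median 0.21), of 56 phototransduction genes 11 were higher and 2 lower (median 0.14) and of 47 clock genes 10 were higher and 0 lower (median 0.22). *crybgx* passed the adjusted p, as described above. The lens fibre genes *bfsp1* and *lim2.5* had 0.87 and 1.08. Their list of 23 lens membrane and cytoskeleton genes had a median of 0.06, with 8 members negative, and the lens marker *mipa* had -0.24. *gnb3a*, a transducin subunit of cones, had 6.62, 9.05 and 8.71 in mutants, against 5.69 and 6.58 in siblings and 6.48 and 5.55 in uninjected embryos (log2 fold change 2.05, adjusted p = 0.126). In *gnb3a* mutant replicate 1 was barely above the highest control. Of clock genes *nfil3-6* had 0.90 and *hlfa* 0.48. Against siblings alone 5 crystallins, 6 phototransduction genes and 4 clock genes were higher, where 6.17% of all genes were. Without mutant replicate 2 these counts were 10, 5 and 5, and without mutant replicate 3 they were 9, 4 and 5. Of all genes 5.05% were higher without mutant replicate 2 and 6.01% without mutant replicate 3. The retina markers *rcvrna*, *crx*, *pde6c* and *gnat2* had 1.085, 0.91, 0.45 and 0.0089. Only in *rcvrna*, which is also a member of the phototransduction list, did the mutants lie apart from the controls. The mean signal of these 4 retina markers ran from 6.26 to 6.83 in mutants, against 5.79 to 6.18 in controls, and its part in the list values was not tested.

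**Figure D5:**
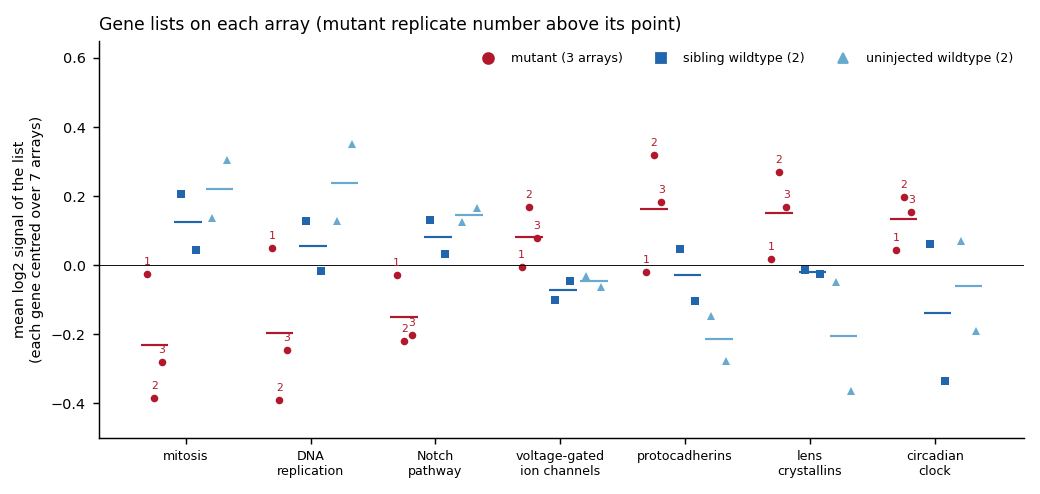
Mean log2 signal of 7 gene lists on each array, each gene centred on its mean over the 7 arrays, with mutants left, sibling wildtype in the middle and uninjected wildtype right, group means as short lines and mutant replicate numbers above their points. Mutant replicate 1 lies nearest to the controls for each list, and for DNA replication, the protocadherins and the clock it lies within their range.

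Other groups held few changes, beside 8.76% of all genes higher and 8.85% lower at an unadjusted p below 0.05. Of 110 respiratory chain genes 6 were higher and 9 lower at an unadjusted p below 0.05, of 67 ribosomal protein genes 0 and 2, of 57 muscle sarcomere genes 3 and 6, of 40 interferon and innate immunity genes 1 and 2, of 24 p53 genes 1 and 2 and of 23 nonsense-mediated decay genes 1 and 1. Their medians ran from -0.0485 for the sarcomere to 0.0535 for interferon. With 1 array left out the lower members were 4 (mutant replicate 1) to 11 (sibling replicate 1) in the respiratory chain, 3 (mutant replicate 2 or 3) to 8 (sibling replicate 1) in the sarcomere and 0 (mutant replicate 2 or 3, or uninjected replicate 1) to 2 among the ribosomal proteins. The decay gene with the smallest p was *upf3a*, with 6.80, 7.23 and 7.09 in mutants, against 6.54 and 6.46 in siblings and 6.47 and 6.46 in uninjected embryos (log2 fold change 0.56, adjusted p = 0.0682). Of 54 genes with proteasome names 0 were higher and 8 lower, with a median of -0.10 (15 lower without mutant replicate 1), and the lower ones included *psmd3* (-0.89) and *psmc3ip* (-0.85), a recombination factor that is no proteasome subunit.

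The chromosomal neighbours of *isl2a* were looked at as well, since alleles near an edited gene are inherited with it. Of the 10 nearest measured genes on each side, by gene order on chromosome 25 of the reference assembly, 5 of 20 had an unadjusted p below 0.05, against 17.6% of all genes, and none passed an adjusted p of 0.05. The 5 were *etfa* (-0.18), *tmem266* (0.27), *lactb* (-0.24), *roraa* (0.68) and *ice2* (-0.29), all on the same side of *isl2a*. Against siblings alone there were 2 of 20 (10%), against 12.15% of the genes of all other chromosomes. They were *lactb* and *LOC100006250*, which was not among the 5. In *LOC100006250* the siblings lay 1.55 above the uninjected embryos. Besides *isl2a*, *saal1* (-0.66), *hdac10* (-0.57) and *pdhx* (0.66) on chromosome 25 passed the adjusted p. With *isl2a*, 4 of the 579 genes of the chromosome did (0.69%), and other chromosomes had 0 to 7 (0% to 0.91%). Counted by the brightest probe set, 2 of the 575 other genes of chromosome 25 passed, against 55 of 18232 genes of all other chromosomes. A second and brighter probe set of *pdhx* had -0.06.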

How the data were processed

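RNA from pools of whole embryos was hybridized to GeneChip Zebrafish Gene arrays. The deposited log2 values were made by the authors by robust multi-array averaging with the oligo package, whereas GCRMA stands in the submitters' processing notes, both without a version. They were used unfiltered and without further normalization. limma 3.58.1 in R 4.3.3 fitted 1 mean each for mutants, controls and morphants over 10 arrays (lmFit, eBayes, residual degrees of freedom 7), and separate means per wildtype for the comparisons with each. Tests were two-sided. The median spread between arrays of a group was 0.143 (log2), and the number of arrays limits precision. Symbols came from the array annotation of 20806 probe sets with 1 symbol, with names updated through a reference gene table. Named were all called genes, the 10 largest rises and falls below 2-fold, genes of the study, list members with the smallest p and neighbours of *isl2a*; further list members were chosen after their values were seen. Lists, members and tests were chosen with earlier results of these data known. The fit was tested on simulated data. Promoter motifs were not analysed here. Tables and figures were made in Python 3.11.15 with pandas 2.3.3, scipy 1.17.1 and matplotlib 3.10.9. Alternatives are given in the closing section, 1 of which, with identical copies of a probe set merged, was chosen after seeing the data.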

Additional observations from a re-analysis of the deposited data

Results flagged for a closer look

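For 6 of 49 genes and 3 of 38 list means, 1 of the 4 control arrays stood apart from the others by Dixon's criterion, which chance alone meets in about 5% of groups. Uninjected replicate 2 was high for *galns* (7.65, others 7.20 to 7.25) and *atoh1b* (7.75, others 7.04 to 7.11). Uninjected replicate 1 was low for *LOC793479* (4.92, others 5.67 to 5.76) and *tango6* (6.098, others 6.51 to 6.55). Sibling replicate 1 was high for *ggact.3* (4.95, others 3.02 to 3.27) and low for *cby1* (7.46, others 7.56 to 7.57). The centred mean of the lens crystallins was low on uninjected replicate 2 (-0.36, others -0.05 to -0.02). Those of the motor neuron genes (-0.067, others -0.0090 to 0.0025) and of the nonsense-mediated decay genes (-0.074, others 0.02 to 0.03) were low on sibling replicate 2. In each of these genes the mutant arrays stayed on their own side of all 4 controls, as in all 66 genes past the adjusted p.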

How the results depend on the processing

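The count of 123 called probe sets (61 higher, 62 lower) became 254 without a fold limit (119 higher, 135 lower), 68 from the 7 arrays alone (35 higher, 33 lower), 11 with the methods' t-test (7 higher, 4 lower) and 272 with uninjected wildtype alone (135 higher, 137 lower). Probe sets brighter than the median gave 134 (41 higher, 93 lower), and those with 1 symbol gave 50 (25 higher, 25 lower). Centring arrays on their median gave 58 higher and 65 lower. Leaving out 1 array gave 55 to 213 calls, 30 to 114 higher and 25 to 99 lower; the lowest was without mutant replicate 2 and the highest without mutant replicate 1. With the replicate number as a block 53 were called (28 higher, 25 lower). Correlations between arrays of different groups ran from -0.10 to 0.22 for the same number and from -0.22 to 0.10 for different numbers. Deviations of 2 arrays from their mean mirror each other, so this check cannot settle whether the numbers pair the samples. For *isl2a* the log2 fold change of 0.50 no longer passed an adjusted p of 0.05 from the 7 arrays alone or by the methods' t-test (0.50 each), against siblings (0.47) or uninjected wildtype (0.52), with centred arrays (0.48) or with the block (0.47), and it was 0.46 to 0.55 with 1 array left out. Of the 23 called genes 20 lost the adjusted p with the methods' t-test, 19 without mutant replicate 2, 16 with the block and 14 from the 7 arrays alone. Their direction could hardly change, since the mutants lay apart from all controls in each of them. The cause was not tested.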

Other observations

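Further lists of tissue and stress genes were measured, by the brightest probe set of each gene and at an unadjusted p below 0.05. Over all genes 8.76% were higher and 8.85% lower at that p. Of 32 endothelial genes 0 were higher and 4 lower in mutants, with a median log2 fold change of -0.13, and of 24 heart genes 1 was higher and 5 lower, with a median of -0.15. The lower endothelial genes were 8 without uninjected replicate 1 and 7 without sibling replicate 1. The lower heart genes were 1 without mutant replicate 2 or uninjected replicate 2, 3 without mutant replicate 3 or sibling replicate 2 and 8 without sibling replicate 1. Of 43 Hox genes 1 was higher and 7 lower (median -0.07), and of 34 genes of the unfolded protein and ATF4 response 2 were higher and 7 lower (median -0.05). Without mutant replicate 2 the Hox genes had 4 lower (also 4 without uninjected replicate 2) and the response 0 higher and 2 lower, and its higher ones were also 0 without mutant replicate 3 or uninjected replicate 1. Of 92 genes of epidermis, grainyhead factors and junctions 6 were higher and 8 lower (median 0.0044). Of 25 erythrocyte genes 4 were higher and 1 lower (median 0.08), and of 23 genes of lens membrane and cytoskeleton 5 were higher and 0 lower (median 0.06; 3 higher without mutant replicate 2 or 3). Of 299 zinc finger, MHC, TRIM and GIMAP genes, whose copies can share probe signal, 24 were higher and 20 lower. Among the heat shock and folding genes 6 of 79 were higher and 7 lower.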
